A study of Mus musculus with 6 samples.

Results

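Eicosanoids are signalling lipids made from arachidonic acid, and 9 genes that release, convert, degrade or sense them were described here across 6 kidney RNA-seq libraries. The genes were Pla2g4a and Pla2g4c of the cytosolic phospholipase A2 family, the cyclooxygenases Ptgs1 and Ptgs2, the terminal synthases Ptges, Ptges2 and Ptgis, the prostaglandin reductase Ptgr1 and the prostaglandin E2 receptor Ptger4. They were chosen by symbol, with their counts in these same libraries and the differences between the groups already known, so their values below are a description and not a test. All 9 had a row among the 25189 gene symbols of the table, and all 9 passed the filter on low counts that left 14184 genes tested.

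The samples were labelled as kidney tissue of C57BL/6 males of WT genotype, taken at day 2 of an ischaemia and reperfusion (I/R) model, in which renal blood flow is interrupted and then restored. The first group was I/R with C9, where C9 is chemerin-9, a peptide taken from the end of the protein chemerin, and the second was I/R alone, with 3 libraries each. Both groups had the injury, no uninjured kidney was analysed here, and the labels give no age, no number of mice and neither dose nor timing of the peptide. Nothing in the labels ties each library to its own mouse, so the spread between libraries may be technical.

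Cytosolic phospholipase A2 cuts arachidonic acid out of membrane phospholipids. The cyclooxygenases COX-1, from Ptgs1, and COX-2, from Ptgs2, turn it into prostaglandin H2, from which separate synthases make prostaglandin E2, prostacyclin and the other prostanoids. In the kidney these lipids act on blood flow, renin release and salt handling, and Ptgs2 is often used as a marker of ferroptosis, the iron-dependent form of cell death in the study's title.

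The libraries held 11217252 to 14004529 counts in I/R with C9 and 13069464 to 16938301 counts in I/R. Replicate 3 of I/R stood apart, since its counts differed from those of the other I/R libraries by a chi-square of 5.62 and 6.16 times the degrees of freedom, whereas that pair gave 1.81 and pairs within I/R with C9 gave 1.94 to 2.24. Of 26 kidney cell type markers looked up, 13 had a row. The 6 nephron markers among them summed to 22.1 to 27.4 CPM (read counts scaled to a common library size) in I/R with C9 and 24.8 to 25.5 CPM in I/R, most of it Aqp1, and Aqp2 of the collecting duct was at 0 in at least 1 library. The labelled tissue was therefore only weakly borne out by its nephron markers. The 2 leukocyte markers with a row summed to 4.36 to 6.23 CPM in I/R with C9 and 4.25 to 6.02 CPM in I/R. The 2 vessel markers summed to 0.436 to 1.33 CPM in I/R with C9 and 0.425 to 0.861 CPM in I/R, with Pecam1 at 0 in at least 1 library. By contrast, the 3 stromal genes Pdgfrb, Col1a1 and Acta2 summed to 945.5 to 985.4 CPM in I/R with C9 and 937.8 to 985.6 CPM in I/R. Mitochondrial genes took 2.56% to 2.64% of counts in I/R with C9 and 2.81% to 2.94% in I/R, and the ribosomal RNA Rn18s took 0.261% to 0.306% in I/R with C9 and 0.381% to 0.517% in I/R. Each library has its own batch value in the labels, so batch and treatment cannot be told apart, and the part of these differences in the results below was not tested.

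The stretch before the start of both cyclooxygenase genes is shown because their levels were lower in the same libraries, and that of Pla2g4c because it differed most. Each is the 250 bases before a RefSeq start of build GRCm38.p6, written 5′ to 3′ on the gene's strand, where capitals mark a match to a searched motif. Ptgs2 lies on the plus strand at chr1:150099781-150100030, Ptgs1 on the plus strand at chr2:36230176-36230425, and the second of 2 Pla2g4c starts in the table gives chr7:13329072-13329321 on the plus strand. Both of those Pla2g4c starts lie inside the deposited gene, 1012 and 4667 bases after its first base, and the farther one is shown because it holds a match.
Ptgs2: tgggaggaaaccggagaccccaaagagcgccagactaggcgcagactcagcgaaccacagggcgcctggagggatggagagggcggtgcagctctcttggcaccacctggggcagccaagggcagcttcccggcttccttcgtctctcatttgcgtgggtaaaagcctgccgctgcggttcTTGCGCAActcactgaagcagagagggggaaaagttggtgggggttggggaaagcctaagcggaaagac
Ptgs1: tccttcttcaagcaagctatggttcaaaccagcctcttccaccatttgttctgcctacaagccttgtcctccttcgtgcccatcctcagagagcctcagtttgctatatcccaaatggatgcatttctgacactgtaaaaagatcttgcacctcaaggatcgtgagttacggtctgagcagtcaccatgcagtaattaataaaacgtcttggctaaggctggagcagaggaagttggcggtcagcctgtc
Pla2g4c: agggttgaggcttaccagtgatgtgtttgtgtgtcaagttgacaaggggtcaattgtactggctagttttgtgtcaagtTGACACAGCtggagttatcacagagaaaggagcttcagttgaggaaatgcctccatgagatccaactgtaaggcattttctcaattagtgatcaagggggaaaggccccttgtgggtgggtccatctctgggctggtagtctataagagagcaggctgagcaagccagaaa

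The motifs were searched on both strands in the 300 bases that also take in the 50 after each start. CACGTG is the E-box. TGACG is the core of the cyclic AMP response element. TTGCGCAA is a palindromic C/EBP site, and TATAAA is the TATA box. TGACNNNGC is the core of the antioxidant response element, which NRF2 binds. Ptgs2 held the C/EBP palindrome 62 to 69 bases before its start, which 0.183% of 32851 promoters in the table hold. It also held a cyclic AMP core 14 to 18 bases after the start, running into an E-box at 17 to 22 bases, motifs found in 20.8% and 7.15% of all promoters. Ptgs1 held none of the 5. The antioxidant core stood 163 to 171 bases before the Pla2g4c start shown and was found in no other window of the members, against 12.4% of all promoters. The other Pla2g4c start held no match to these letters. Ptges2 held an E-box 72 to 77 bases before its start, and an inner start of Pla2g4a a TATA box at 195 to 200 bases. Of the 9 genes, 8 had a sequence in the table, and Ptgis was not among them.

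Chemerin-9 went with lower levels of both cyclooxygenase genes and of Pla2g4a, and with higher levels of Pla2g4c and the prostacyclin synthase gene Ptgis. The remaining 4 genes did not pass. An edgeR quasi-likelihood fit of all genes put 5 of the 9 at a Benjamini-Hochberg adjusted p under 0.05, 3 of them lower and 2 higher. Of all tested genes 51.7% passed, 26.1% lower and 25.6% higher, and nothing is read from the members' count. The median log2 fold change of I/R with C9 over I/R was -0.0088 over the 9 genes and -0.0037 over all tested genes. These are bulk libraries, in which fewer cells of a type and less RNA per cell cannot be told apart.

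**Figure D1:**
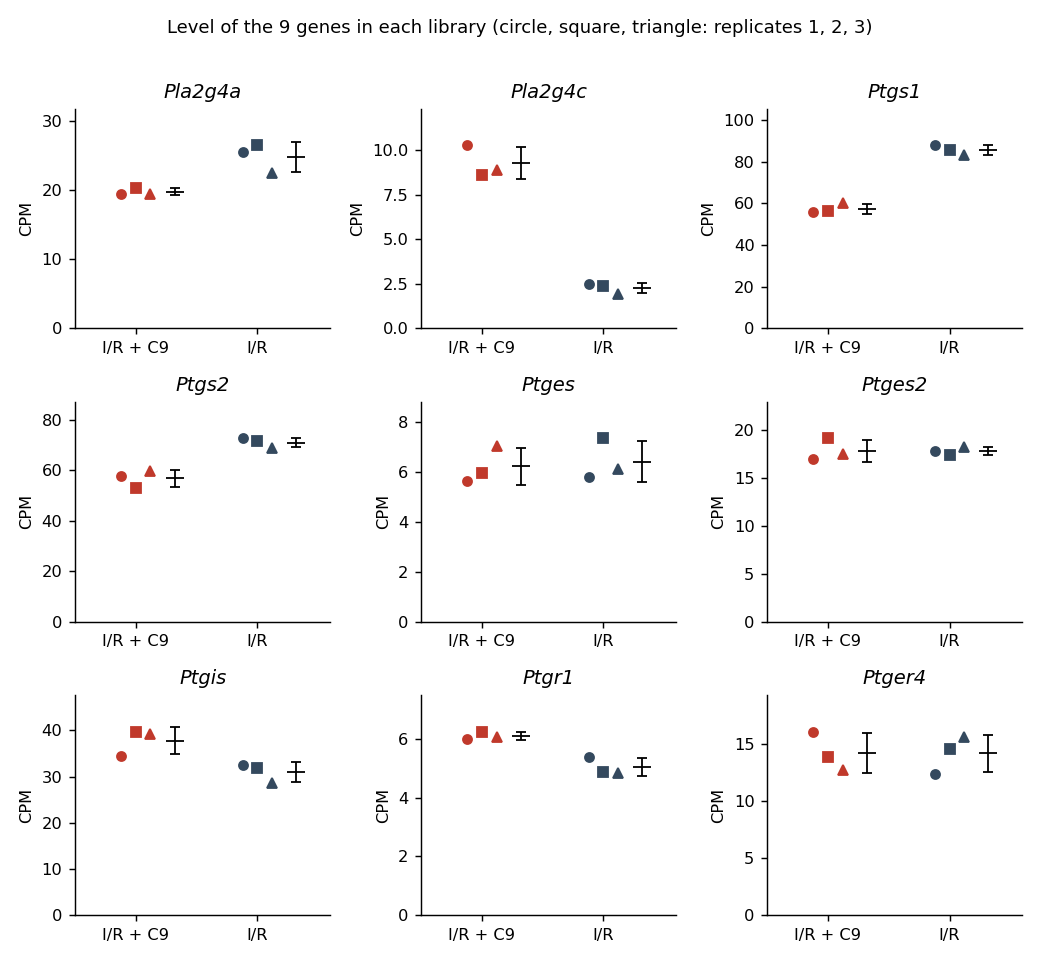
Level of each gene in CPM (vertical axis, from 0) in every library, with I/R with C9 on the left in red and I/R on the right in dark blue, where circles, squares and triangles are replicates 1, 2 and 3 and the black mark is the mean with its SD (n = 3). The groups are apart for 6 genes and overlap for Ptges, Ptges2 and Ptger4.

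The 2 cytosolic phospholipase genes among the 9 showed opposite differences. Pla2g4a encodes the calcium-dependent enzyme that feeds most stimulated prostaglandin synthesis. It measured 19.4, 20.3 and 19.5 CPM in I/R with C9 and 25.5, 26.5 and 22.5 CPM in I/R. All 3 libraries with C9 lay below all 3 of I/R, and the lowest I/R value was that of replicate 3. The log2 fold change was -0.33 (standard error 0.088), and -0.40 without I/R replicate 3.

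Pla2g4c encodes a family member that lacks the calcium-binding C2 domain. It measured 10.3, 8.62 and 8.88 CPM in I/R with C9, from 118, 117 and 127 reads, and 2.51, 2.38 and 1.94 CPM in I/R, from 32 reads in each library. The libraries with C9 lay far above those of I/R, with no overlap. The fitted ratio was 4.08, or 2.03 on the log2 scale (standard error 0.17), and only 0.656% of tested genes had a larger absolute change. With each library left out in turn it ran between 1.91 and 2.10. Another gene of the family, Pla2g4b, named after its values were seen, was at 2.59 ± 0.457 CPM in I/R with C9 and 2.66 ± 0.207 CPM in I/R (SD, n = 3) and did not pass. Pla2g4c lies on chromosome 7 at 13324655 to 13360672 (GRCm38, plus strand, ENSMUSG00000033847), and no exon of another annotated gene overlaps its exons.

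Per kilobase of exon, Pla2g4c stood at 0.903, 0.723 and 0.776 of the Pla2g4a level in I/R with C9, against 0.167, 0.153 and 0.148 of it in I/R. In I/R with C9 the 2 levels per kilobase were thus near each other, at 2.47 ± 0.239 CPM per kb for Pla2g4c and 3.09 ± 0.0784 for Pla2g4a (SD, n = 3). That nearness rests on the exon lengths used, since the means not divided by length were 9.26 and 19.8 CPM. In I/R the levels per kilobase were 0.607 ± 0.0788 for Pla2g4c and 3.89 ± 0.332 for Pla2g4a (SD, n = 3).

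Both cyclooxygenase genes were lower with C9. Ptgs1, the constitutive form, measured 55.9, 56.1 and 59.9 CPM in I/R with C9 and 87.8, 85.6 and 83.3 CPM in I/R. Its log2 fold change was -0.58 (standard error 0.050), which put the level at 0.670 of that in I/R. Ptgs2, the form induced by growth factors, cytokines and injury, measured 57.5, 52.9 and 59.7 CPM in I/R with C9 and 72.5, 71.4 and 68.8 CPM in I/R. The groups of neither gene overlapped, and the highest library with C9 stayed under the lowest of I/R in both. The Ptgs2 log2 fold change was -0.32 (standard error 0.056), or 0.801 of the level in I/R. It was -0.44 with the trend on GC content and length removed and -0.25 with no size factor. Ptgs2 lies on chromosome 1 at 150100031 to 150108227 (plus strand, ENSMUSG00000032487), and Ptgs1 on chromosome 2 at 36230426 to 36252272 (plus strand, ENSMUSG00000047250).

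Within each library, Ptgs1 was the higher of the cyclooxygenases per kilobase of exon, and its lead was smaller with C9. In CPM not divided by length, Ptgs1 was below Ptgs2 in replicate 1 of I/R with C9, at 55.9 against 57.5. Per kilobase, the ratio of Ptgs1 to Ptgs2 was 1.145, 1.250 and 1.183 in I/R with C9 and 1.43, 1.41 and 1.43 in I/R. The ratios did not overlap, and since both genes come from 1 library, the ratio does not depend on the size factor. The difference between their changes was smaller with the trend on GC content and length removed. The log2 fold changes were then -0.57 for Ptgs1 and -0.44 for Ptgs2, against -0.58 and -0.32 in the main fit.

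**Figure D2:**
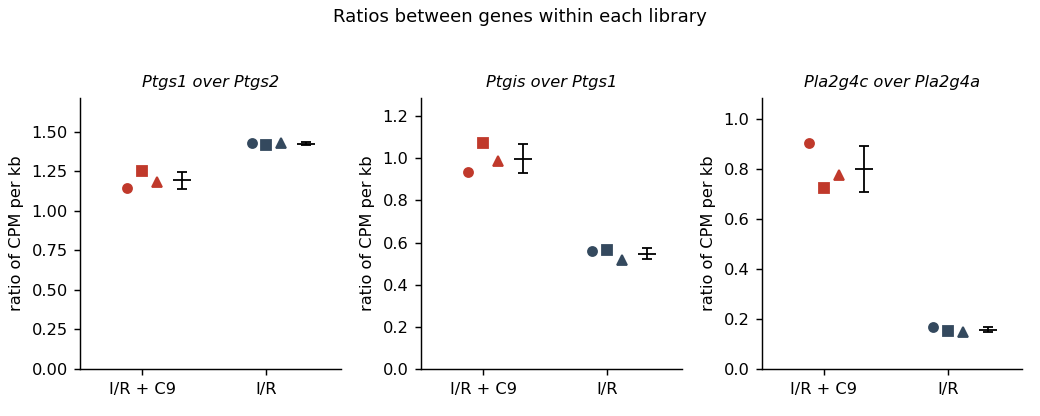
Ratio of 2 genes in CPM per kilobase of exon within each library (vertical axes, from 0), for Ptgs1 over Ptgs2, Ptgis over Ptgs1 and Pla2g4c over Pla2g4a, where I/R with C9 is left in red and I/R right in dark blue, symbols are replicates 1 to 3 and black marks are the mean with SD (n = 3). None of the drawn ratios overlaps between the groups, but they join genes already known to differ. The ratios of Ptges over Ptges2 and of Ptges over Ptgis, not drawn, did overlap.

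The terminal synthases differed among themselves. Ptgis, which makes prostacyclin, a dilator of blood vessels, measured 34.5, 39.7 and 39.2 CPM in I/R with C9 and 32.4, 31.9 and 28.5 CPM in I/R. Every library with C9 was above every I/R library, by a small gap between replicate 1 of I/R with C9 and replicate 1 of I/R. The log2 fold change was 0.29 (standard error 0.077), and 0.23 without I/R replicate 3. Ptgis per kilobase of exon was close to Ptgs1 in I/R with C9, at 0.935, 1.07 and 0.989 of its level, and stood at 0.558, 0.565 and 0.518 of it in I/R. Not divided by length, the means in I/R with C9 were 37.8 CPM for Ptgis and 57.3 CPM for Ptgs1.

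Ptges encodes the inducible microsomal prostaglandin E2 synthase that is coupled to COX-2. It measured 5.66, 5.97 and 7.06 CPM in I/R with C9 and 5.79, 7.36 and 6.13 CPM in I/R, and the groups overlapped. The log2 fold change was -0.037, with a 95% interval of -0.37 to 0.30. Ptges2, a second and constitutive synthase gene, measured 17.0, 19.2 and 17.5 CPM in I/R with C9 and 17.9, 17.5 and 18.3 CPM in I/R. Its log2 fold change was 0.0023, with a 95% interval of -0.19 to 0.20, and the groups overlapped too. A change in these genes within those bounds is not excluded.

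Ptgr1, the reductase that inactivates prostaglandins and leukotriene B4, measured 6.01, 6.26 and 6.09 CPM in I/R with C9 and 5.40, 4.90 and 4.85 CPM in I/R. The libraries did not overlap, yet the gene did not pass, with a log2 fold change of 0.28 and a 95% interval of -0.041 to 0.60. In all, 6 of the 9 genes had no overlap between the groups, as had 58.5% of all tested genes. Each library held 66 to 87 reads of Ptgr1.

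Ptger4 encodes the EP4 receptor, which couples prostaglandin E2 to cyclic AMP. It measured 16.0, 13.9 and 12.7 CPM in I/R with C9 and 12.4, 14.6 and 15.5 CPM in I/R, with full overlap. The log2 fold change was -0.0088, with a 95% interval of -0.26 to 0.25. Its counts are less certain than those of the other genes, because the pseudogene Gm15937, not analysed here, lies across 15.3% of its exon bases on the opposite strand. Ttc33, also on the opposite strand, shares 82 exon bases with it and was lower with C9, at 31.9 CPM against 39.7 CPM in I/R.

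**Figure D3:**
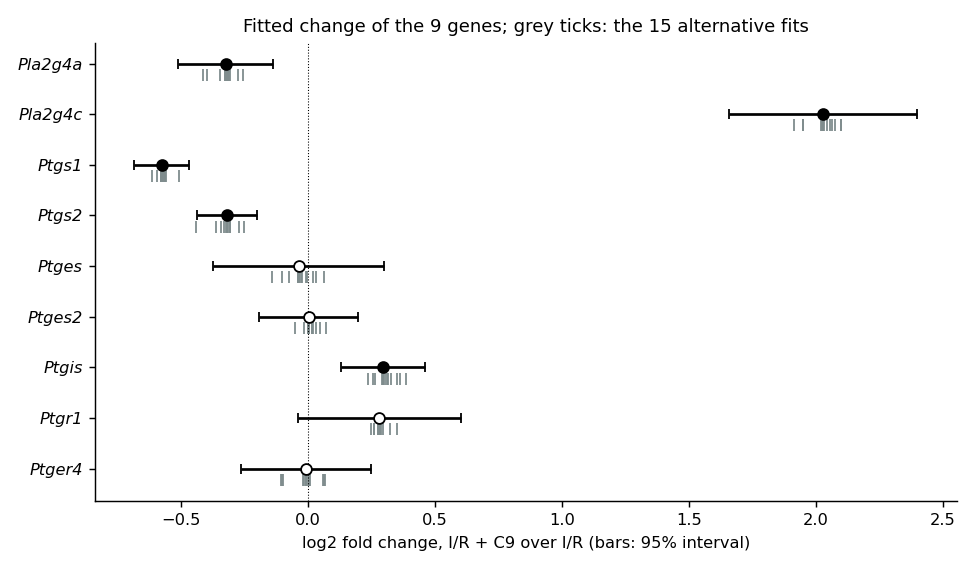
Fitted log2 fold change of I/R with C9 over I/R for the 9 genes (horizontal axis), with 95% intervals, where filled points passed an adjusted p under 0.05 in the fit of all genes and open points did not, and grey ticks are the 15 alternative fits. Pla2g4c is at 2.03, apart from the others between -0.58 and 0.29.

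Set in order by level per kilobase of exon, the genes in I/R with C9 ran as Ptgs1 (14.8 ± 0.591 CPM per kb), Ptgis (14.7 ± 1.12) and Ptgs2 (12.4 ± 0.760), SD with n = 3 for each. Ptgs1 and Ptgis did not differ beyond their spread. A wide step led down to Ptges2 (3.54 ± 0.225), Pla2g4a (3.09 ± 0.0784), Ptgr1 (2.67 ± 0.0562), Pla2g4c (2.47 ± 0.239), Ptger4 (2.13 ± 0.258) and Ptges (1.59 ± 0.187). Of these neighbours, Ptgr1 and Pla2g4c, and Pla2g4c and Ptger4, overlapped within their SDs. In I/R the order was Ptgs1 (22.03 ± 0.582 CPM per kb), Ptgs2 (15.5 ± 0.420) and Ptgis (12.1 ± 0.828). Below them came Pla2g4a (3.89 ± 0.332), Ptges2 (3.53 ± 0.0797), Ptgr1 (2.20 ± 0.132), Ptger4 (2.13 ± 0.244), Ptges (1.64 ± 0.209) and Pla2g4c (0.607 ± 0.0788). There Pla2g4a and Ptges2, and Ptgr1 and Ptger4, were within their SDs of each other. Pla2g4c was thus last in I/R and seventh with C9, and Ptgis and Ptgs2 changed places. Both orders rest on the length of all annotated exons of each gene, and which transcripts were present was not tested.

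The members share some of their position in the genome. Pla2g4a (chromosome 1, 149829618 to 149961290, minus strand) and Ptgs2 are neighbours, 138740 bases apart and pointing away from each other, with no protein-coding gene between them in GENCODE M21. On chromosome 2 lie 4 of the 9 genes, Ptgs1, Ptges, Ptges2 and Ptgis. Of the 10531 other tested genes at 5 CPM or more, 533 had a Pearson correlation of at least 0.95 with Ptgs2 over the 6 libraries on the log2 scale. Among the closest were Izumo4, Tmem81, Dcaf12 and Rad54l, each at 0.997, and Ptgs1 reached 0.969. The points of these correlations share library and group, so they mostly rank genes that were lower with C9.

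Around the 9 genes, the other genes of 7 textbook eicosanoid lists split in both directions. Of 119 genes listed, 59 were tested, and 12 were higher, 18 lower and 29 did not pass. That is 50.8% past the threshold, against 51.7% of all tested genes, and a median log2 fold change of -0.0058. Scaled by library totals alone, the split was 14 higher and 12 lower, and over all genes 4473 higher and 2891 lower against 3637 and 3699 with the size factors used.

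Among the other phospholipase A2 genes, 6 of 12 tested were lower with C9 and 1 was higher, with a median log2 fold change of -0.15. Of all tested genes 26.1% were lower and 25.6% higher, and nothing is read from the counts of single lists, here or below. Pla2g6, the calcium-independent enzyme, fell to 28.8 ± 1.15 CPM in I/R with C9, against 47.6 ± 2.89 CPM in I/R (SD, n = 3; log2 fold change -0.72, edgeR adjusted p = 5.7e-07). Pnpla6, a phospholipase of the neuropathy target esterase family, and Pnpla8, a calcium-independent phospholipase of mitochondria and peroxisomes, fell by 0.75 and 0.53 on the log2 scale. Pla2g7, which breaks down platelet-activating factor and oxidised phospholipids, rose to 19.7 ± 2.49 CPM in I/R with C9, against 15.5 ± 1.08 CPM in I/R (SD, n = 3). The Pla2g7 call was lost without replicate 1 of I/R with C9 (log2 fold change 0.24) or replicate 2 of I/R (0.30). The secreted enzyme gene Pla2g2e fell by 0.88 on the log2 scale at 1.68 ± 0.687 CPM in I/R with C9 and 3.02 ± 0.634 CPM in I/R (SD, n = 3). That call was lost without replicate 2 or 3 of I/R with C9 (-0.91 and -0.60), without replicate 3 of I/R (-0.70), and in the fit corrected for GC and length (-0.70). Plaat3, Pafah2 and Pla2r1 did not pass, with log2 fold changes of 0.0013, -0.12 and 0.23, and 3 more genes were under the count filter.

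In prostanoid synthesis, 2 of the 6 other tested genes fell and 1 rose. Cbr2, a carbonyl reductase, fell to 36.5 ± 0.394 CPM in I/R with C9, against 46.96 ± 3.00 CPM in I/R (SD, n = 3), by 0.37 on the log2 scale (edgeR adjusted p = 2.3e-04). Akr1b3, an aldose reductase that can form prostaglandin F2α, fell by 0.24. Ptges3, the cytosolic prostaglandin E2 synthase that is better known as the HSP90 co-chaperone p23, rose by 0.14 (edgeR adjusted p = 0.0056). Its call was lost without replicate 3 of I/R with C9 (0.10), and the pseudogene Ptges3-ps matches it at 100% identity over 480 bases, so its reads are uncertain. Hpgds, Cbr1 and Akr1c18 did not pass, with log2 fold changes of 0.44, -0.059 and 0.15. With 1 library left out they ran from 0.18 to 0.78 for Hpgds, -0.27 to 0.18 for Cbr1 and -0.11 to 0.37 for Akr1c18. Tbxas1, Ptgds and Cbr3 were under the count filter.

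In breakdown and transport, Slco2a1, the carrier that takes prostaglandins up into cells, rose to 76.9 ± 2.65 CPM in I/R with C9, against 57.7 ± 4.73 CPM in I/R (SD, n = 3). Its log2 fold change was 0.42 (edgeR adjusted p = 4.1e-05). Cyp4f13, of the fatty acid hydroxylase family, fell by 0.73 on the log2 scale. Zadh2, which encodes prostaglandin reductase 3, fell by 0.16 (edgeR adjusted p = 0.041), a call that held in 6 of 15 alternatives and was lost without replicate 2 or 3 of I/R with C9 (-0.14 and -0.16) and without replicate 1 or 3 of I/R (-0.15 for each). The exporter gene Abcc4 did not pass (log2 fold change 0.083), though it did when scaled by library totals (0.15), and its value was 0.021 without replicate 3 of I/R. Ptgr2 and Slco3a1 did not pass either (0.024 and -0.050) and turned sign with 1 library left out, and Ptgr2 reads are uncertain because Gm47484 matches it at 100% identity over 1898 bases.

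Besides Ptger4, the receptor list held 3 tested genes, and 1 of these fell. It was Ptgfrn, which encodes a membrane protein that binds the prostaglandin F receptor and is no receptor itself, at 110.7 ± 2.16 CPM in I/R with C9 and 125.8 ± 3.55 CPM in I/R (SD, n = 3). Ptger1 (EP1) and Ptgir (the prostacyclin receptor) were at 0.550 ± 0.237 and 1.09 ± 0.282 CPM in I/R with C9, and at 1.07 ± 0.348 and 1.05 ± 0.485 CPM in I/R (SD, n = 3). Neither passed, and Ptger1 did so only without replicate 1 of I/R (log2 fold change -1.17, against -0.96 with it). Ptger2 (EP2) was under the count filter.

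The lipoxygenase and leukotriene list was mostly at low levels, with 6 tested of the 10 genes that had a row, 2 lower and none higher. The other 11 of its 21 genes were not analysed here. Lta4h, which makes leukotriene B4, fell to 112.0 ± 1.56 CPM in I/R with C9, against 123.0 ± 5.67 CPM in I/R (SD, n = 3; log2 fold change -0.14, edgeR adjusted p = 0.018). Its call was lost without replicate 3 of I/R with C9 (-0.13), without replicate 3 of I/R (-0.098) and with library totals (-0.067). Ggt1, which trims leukotriene C4 and glutathione, fell by 1.01 on the log2 scale at 0.933 ± 0.535 CPM in I/R with C9 and 1.96 ± 0.466 CPM in I/R (SD, n = 3). It passed in 8 of 15 alternatives, and not without replicate 1 or 3 of I/R with C9 (-0.67 and -1.09) or replicate 1 or 2 of I/R (-0.98 and -0.85). Mgst2, Mgst3 and Aloxe3 did not pass, with log2 fold changes of -0.25, -0.024 and 0.21. Each turned sign with 1 library left out, with ranges of -0.37 to 0.022 for Mgst2, -0.13 to 0.069 for Mgst3 and -0.11 to 0.67 for Aloxe3, so no direction is given.

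In the cytochrome P450 and epoxide hydrolase list, 2 of 8 tested genes rose and none fell. Ephx2, the soluble epoxide hydrolase that inactivates epoxyeicosatrienoic acids, rose to 32.8 ± 1.01 CPM in I/R with C9, against 17.9 ± 1.27 CPM in I/R (SD, n = 3). Its log2 fold change of 0.88 passed in all 15 alternatives (edgeR adjusted p = 4.2e-07). The other was Ephx3, named after its values were seen, at 1.09 ± 0.213 CPM in I/R with C9 and 0.218 ± 0.0891 CPM in I/R (SD, n = 3; log2 fold change 2.32). Those levels rest on 12, 18 and 13 reads in I/R with C9 and 3, 4 and 2 reads in I/R. Ephx3 passed the filter on low counts only through the libraries with C9, where it was high. Its call is therefore not read as a test, and no p-value is given. The fitted values ran from 1.99 to 2.61 in the 14 alternatives that kept the gene, and the filter at 1 CPM removed it. Cyp4f16, Ephx1 and Cyp2j6 did not pass, with log2 fold changes of 0.0024, -0.052 and -0.22. Cyp4f16 is 96.1% identical to Cyp4f37 over 1607 bases, so its reads are uncertain.

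Genes that store arachidonic acid or release it by other routes made up the longest tested list, with 7 of 18 higher and 5 lower. Dagla, which makes the endocannabinoid 2-arachidonoylglycerol, rose by 0.53 on the log2 scale, to 14.6 ± 0.507 CPM in I/R with C9, against 10.1 ± 0.863 CPM in I/R (SD, n = 3; edgeR adjusted p = 9.0e-04). Abhd6, which hydrolyses that lipid, rose by 0.42 (edgeR adjusted p = 2.2e-04), with 96.1% identity to Gm1833 over 623 bases. The acyl-CoA synthetase gene Acsl1 and Napepld, which makes N-acylethanolamines, rose by 0.43 and 0.45, and the Napepld call was lost without replicate 2 of I/R with C9 (0.38). The other acyl-CoA synthetase genes of the list, Acsl3 and Acsl4, named after their values were seen, fell by 0.35 and 0.16. Mboat7, which puts arachidonic acid into phosphatidylinositol, fell to 32.2 ± 0.923 CPM in I/R with C9, against 42.4 ± 0.873 CPM in I/R (SD, n = 3; log2 fold change -0.39, edgeR adjusted p = 9.0e-05). S100a10, Lpcat3 and Daglb did not pass, with log2 fold changes of -0.0060, -0.0058 and -0.053. Of the stromal markers, Pdgfrb rose to 49.2 ± 1.98 CPM in I/R with C9, against 35.1 ± 2.75 CPM in I/R, while Acta2 fell to 116.0 ± 4.08 CPM, against 163.0 ± 6.90 CPM (SD, n = 3). Their part in the values of the eicosanoid genes was not tested.

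**Figure D4:**
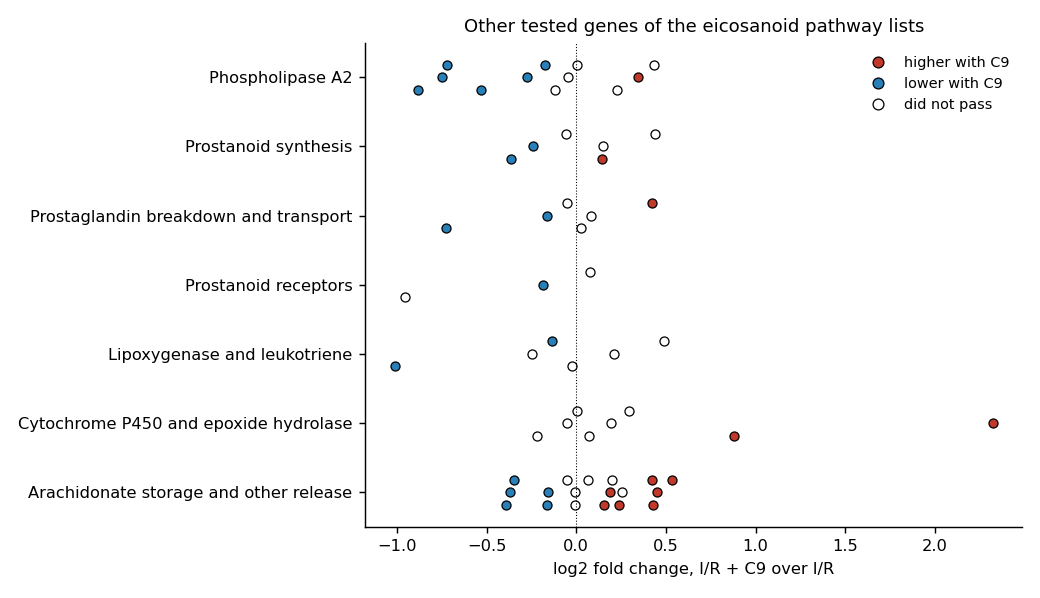
Log2 fold change of I/R with C9 over I/R (horizontal axis) of the tested genes of the 7 lists, without the 9 genes above, where red points were higher with C9 and blue points lower at an adjusted p under 0.05, and white points did not pass, with the small vertical offsets only keeping points apart. The red point at 2.32 is Ephx3, which passed the count filter only through the libraries with C9, and the next at 0.88 is Ephx2.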

How the data were processed

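The authors deposited raw counts per gene symbol with no normalization, as whole numbers with a different total in each library. Per the submitters' processing notes, HISAT2, HTSeq, DESeq 1.18.1 and the build mm10 were used. Neither the annotation release nor the strand setting of the counting is given in the sources used here, so reads of overlapping opposite-strand genes (Gm43621 with 148 exon bases of Ptgs1, 1110018N20Rik with 156 of Ptgis) may be mixed. The same table holds a log2 fold change, a linear fold ratio and a p-value for each gene by the authors, and their deposited log2 fold changes of the 9 genes lay within 0.0063 of those given here. Coordinates matched GRCm38, with 97.5% of genes starting as in GENCODE M21.

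The treated columns are named IC in the table, taken here to stand for I/R plus C9, whereas the labels name them S for another table. Every statement on C9 rests on that reading. The treatment field of those samples also reads C10 and C11, and the titles, all C9, were followed.

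Of 25216 rows, 27 repeated a symbol and its counts and were dropped. The main test was edgeR 4.0.16 in R 4.3.3 (TMM size factors, filterByExpr, quasi-likelihood, group only, Benjamini-Hochberg over 14184 genes, threshold 0.05). It was also run on simulated counts with few changed genes and the same dispersion for every gene. In these data 51.7% of genes passed, and that run does not check the fit at such a share. The common biological coefficient of variation, which is the spread between libraries beyond counting noise, was 5.18%. CPM values use the TMM-adjusted library size, and levels per kilobase use all exon bases of GENCODE M21. Intervals take the fit's standard error and degrees of freedom. Transcripts were searched for copies with BLAST 2.17.0 (95% identity over 50% of the shorter one), which found 7 of 56 genes with a copy; Ptgr1 and Slco2a1 matched short RNA genes alone. Nothing in the labels says that replicate numbers pair the libraries. The correlation of deviations was 0.102, -0.052 and 0.042 for numbers 1, 2 and 3, and -0.14 to 0.108 for unlike numbers. With 3 libraries per group, these values cannot exclude a pairing.

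The members, lists and tests were chosen with earlier results of these data known. Named were the 9 members and, per list, up to 5 genes past the threshold with the largest change at 1 CPM or more and the 3 most abundant that did not pass. Alternatives were other size factors, DESeq2 1.42.0, limma-voom (limma 3.58.1), other count filters, a replicate block, each library left out, and, added after the data were seen, a GC and length trend removed (mgcv 1.9.3). Genes with no row were not analysed here. Some genes that these rules select are not reported here.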

Additional observations from a re-analysis of the deposited data

How the results depend on the processing

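Across the 15 alternatives, the same 5 of the 9 genes (Pla2g4a, Pla2g4c, Ptgs1, Ptgs2 and Ptgis) passed in each, with the same sign, and Ptges, Ptges2, Ptgr1 and Ptger4 passed in none. Of 135 refitted values of the 9 genes, 130 moved by less than the spread between replicates, and the other 5 came with library totals (Ptgs1, Ptgs2, Ptges2 and Ptgr1) and the GC and length trend (Ptgs2). The fitted log2 values ran from -0.41 to -0.26 for Pla2g4a, 1.91 to 2.10 for Pla2g4c, -0.61 to -0.51 for Ptgs1, -0.44 to -0.25 for Ptgs2 and 0.23 to 0.38 for Ptgis. The signs of Ptges, Ptges2 and Ptger4 changed between alternatives, with no call at either sign. With the replicate block, 7300 genes passed, against 7336 without it, and it changed no call among the 9 genes. Among the 59 other pathway genes, 25 to 30 passed under all alternatives, 25 to 30 with 1 library left out and 29 with the block, where Zadh2 was lost. Over all genes, 6399 to 7323 passed with 1 library left out and 6312 with DESeq2. None of these totals moved by over 1.5 times, but the pathway genes called lower numbered 12 with library totals, against 18. Of 21 named pathway genes that did not pass, 14 turned sign with 1 library left out, and 2 (Abcc4 and Ptger1) passed in an alternative. Depth limits Pla2g4c in I/R, at 32 reads a library, and the genes near 1 CPM.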
